A study of Mus musculus with 4 samples.

Results

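In mouse oligodendrocytes (OLs), 12547 stretches of open chromatin lay outside protein-coding genes and carried a peak in both OL libraries and in neither library of oligodendrocyte progenitor cells (OPCs). They were found by merging overlapping or touching peaks of the 4 deposited peak lists into 229743 regions, of which 35878 were OL-only. An OL-only region was kept where its midpoint lay outside all 21883 protein-coding gene intervals of RefSeq on mm10 and more than 1 kb from any gene end. The kept regions were 35.0% of the OL-only regions and 5.46% of all regions. A further 22196 OL-only regions lay in gene bodies, 1104 at gene ends and 31 on sequences with no gene. The regions were chosen by the presence of peaks in OL and their absence in OPC libraries, so every OL and OPC value below is a description, and no test was made.

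The study compared chromatin accessibility of OLs with that of OPCs by Omni-ATAC-seq, an assay whose transposase, Tn5, cuts and tags open DNA. The OL group held 2 libraries of cells sorted for the surface antigen O1, a marker of immature OLs, with 1 library for 129O1 and 1 for EpiSC5, which are lines of epiblast stem cells. The OPC group held 2 libraries from the same 2 lines, of cells grown in bFGF and PDGFA (20 ng/mL each), sorted for CD140a and NG2, and expanded. The lines come from 129SvEv and 129S1/SvImJ mice, per the labels, and neither line is tied to a strain here. SHH was used neither to keep OPCs nor to differentiate them. Each library came from 50000 cells and was read as 50 bp single-end reads. All 4 libraries are cultures derived from pluripotent cells, and nothing in the labels says whether a line was cultured more than 1 time. In bulk libraries a site open in few cells and a site weakly open in many cells cannot be told apart, and a missing peak does not show that a site was closed.

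Sequence outside genes holds many enhancers, short elements that bind transcription factors and act on genes that may lie far along the chromosome. During the step from OPC to OL, factors such as SOX10, OLIG2, TCF7L2 and MYRF bind such elements near genes of myelin and of differentiation. Intergenic sequence also holds genes for long non-coding RNAs (lncRNAs) and for microRNAs, short RNAs that pair through their seed with messenger RNAs. MicroRNAs are needed for OL differentiation in the mouse.

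Some of the regions lay on non-coding RNA genes whose sequence is known. Of 348 microRNA hairpins outside protein-coding genes, 7 were overlapped by an OL-only region outside genes, 4 by an OPC-only region and 26 by a region shared by all 4 lists. Shown here are mature microRNAs of overlapped hairpins (miR-9, miR-9b, miR-3093, miR-146b, miR-7210) and of the Mir17 to Mir92-1 hairpins, which had 4 OL-only regions within 20 kb. The sequences are those of RefSeq (GRCm38.p6), 5′ to 3′, with the seed, bases 2 to 8, in capitals.
mmu-miR-9-5p: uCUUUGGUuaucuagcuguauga
mmu-miR-9-3p: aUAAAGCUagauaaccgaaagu
mmu-miR-9b-5p: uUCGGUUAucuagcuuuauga
mmu-miR-3093-5p: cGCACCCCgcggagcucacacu
mmu-miR-146b-5p: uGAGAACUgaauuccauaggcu
mmu-miR-7210-5p: uAACAUUGuagacaggcacaaag
mmu-miR-17-5p: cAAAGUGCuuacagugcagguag
mmu-miR-20a-5p: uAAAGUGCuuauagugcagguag
mmu-miR-18a-5p: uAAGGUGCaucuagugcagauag
mmu-miR-19a-3p: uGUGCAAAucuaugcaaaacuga
mmu-miR-19b-3p: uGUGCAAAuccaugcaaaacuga
mmu-miR-92a-3p: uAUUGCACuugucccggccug

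miR-17-5p and miR-20a-5p share the seed AAAGUGC, and miR-19a-3p and miR-19b-3p share the seed GUGCAAA. miR-9b lies on the strand opposite to miR-9 at the same place. The Mir9-1 hairpin (chr3:88215598-88215686, + strand) lay inside a region at chr3:88215470-88215763, and the neighbouring Mir3093 hairpin lay in another. Only the OL 129O1 peak of that region covered the Mir9-1 hairpin; the OL EpiSC5 peak ended just before the hairpin. The fold enrichment over background, as the authors' peak caller gave it, was 2.76 in OL 129O1 and 2.32 in OL EpiSC5 at Mir9-1. At Mir3093 it was 3.53 in OL 129O1 and 2.93 in OL EpiSC5. These are low folds, since the median over all 12547 regions was 6.68 in OL 129O1 and 8.29 in OL EpiSC5. The region at Mir146b, 4.08 kb from the protein-coding gene Cuedc2, had folds of 4.26 and 5.48 in OL 129O1 and OL EpiSC5, and that at Mir7210 had 6.68 and 9.44. Within 20 kb of the Mir17 to Mir92-1 hairpins on chromosome 14, 48 kb from Gpc5, lay 4 OL-only, 0 OPC-only and 2 shared regions. Over all 348 hairpins, 28.4% had an OL-only region within 20 kb, 32.2% an OPC-only region and 48.6% a shared region, so nearness to microRNAs was not greater for the OL-only regions.

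The promoter windows of lncRNA genes, from 250 bases before to 50 bases after the start, give the only sequence available that overlaps the regions. Of 11588 such windows, 55 were overlapped by an OL-only region, and 7 of these lay wholly inside one. Shown are the 6 of the 7 that hold a searched motif, from RefSeq (GRCm38.p6), 5′ to 3′ on the strand of the lncRNA. Capitals mark CAGCTG, an E-box, in the first 4 and ACAAAG, read by SOX proteins, or its reverse complement in the last 2. The windows are chr2:129218719-129219018 (+ strand), chr10:94961387-94961686 (+ strand), chr1:73827032-73827331 (- strand), chr2:160620018-160620317 (- strand), chr10:37364312-37364611 (- strand) and chr11:54819669-54819968 (+ strand).
A730036I17Rik: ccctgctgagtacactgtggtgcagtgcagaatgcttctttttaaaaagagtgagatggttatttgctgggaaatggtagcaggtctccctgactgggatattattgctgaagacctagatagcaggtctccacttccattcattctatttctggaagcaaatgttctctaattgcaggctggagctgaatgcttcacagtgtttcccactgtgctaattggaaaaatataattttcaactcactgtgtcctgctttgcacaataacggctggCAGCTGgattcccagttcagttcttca
Gm40744: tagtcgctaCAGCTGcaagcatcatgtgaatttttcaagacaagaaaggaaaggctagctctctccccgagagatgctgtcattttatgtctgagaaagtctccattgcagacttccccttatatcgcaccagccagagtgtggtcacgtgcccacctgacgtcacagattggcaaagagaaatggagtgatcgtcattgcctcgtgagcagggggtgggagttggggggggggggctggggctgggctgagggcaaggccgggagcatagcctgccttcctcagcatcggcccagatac
Gm29183: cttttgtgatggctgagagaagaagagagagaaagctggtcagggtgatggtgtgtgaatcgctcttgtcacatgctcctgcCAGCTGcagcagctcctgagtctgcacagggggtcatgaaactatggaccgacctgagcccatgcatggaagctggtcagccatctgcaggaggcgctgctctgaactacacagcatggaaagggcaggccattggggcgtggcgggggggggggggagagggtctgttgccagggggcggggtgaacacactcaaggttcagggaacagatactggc
LOC115489488: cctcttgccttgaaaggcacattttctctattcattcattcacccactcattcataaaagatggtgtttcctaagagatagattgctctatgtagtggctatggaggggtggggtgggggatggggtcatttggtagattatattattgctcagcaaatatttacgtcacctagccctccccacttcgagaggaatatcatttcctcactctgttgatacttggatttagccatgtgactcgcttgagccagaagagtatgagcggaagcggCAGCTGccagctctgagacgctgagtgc
Gm31202: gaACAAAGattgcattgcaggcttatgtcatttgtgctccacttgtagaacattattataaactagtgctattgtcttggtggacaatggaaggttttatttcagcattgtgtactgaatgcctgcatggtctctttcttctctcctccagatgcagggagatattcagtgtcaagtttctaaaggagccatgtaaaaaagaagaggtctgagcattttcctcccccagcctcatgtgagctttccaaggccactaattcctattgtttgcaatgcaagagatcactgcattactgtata
Lyrm7os: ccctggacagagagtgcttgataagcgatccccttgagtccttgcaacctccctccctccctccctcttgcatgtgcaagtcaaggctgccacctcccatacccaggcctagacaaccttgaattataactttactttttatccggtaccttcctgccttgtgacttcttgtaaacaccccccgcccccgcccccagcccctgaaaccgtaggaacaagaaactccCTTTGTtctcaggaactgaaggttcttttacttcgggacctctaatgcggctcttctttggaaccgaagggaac

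A730036I17Rik lay in a region of 584 bp, 7.23 kb from Slc20a1, with folds of 10.8 in OL 129O1 and 10.7 in OL EpiSC5. Its E-box began at base 274 of the window, past the start of the lncRNA. The region at Gm40744, 16.5 kb from Plxnc1, had folds of 8.75 in OL 129O1 and 8.54 in OL EpiSC5, and its E-box began 241 bases before the start. The region at Gm29183, 83.0 kb from Tns1, had folds of 6.88 and 8.15 in OL 129O1 and OL EpiSC5. The region at Gm31202, 225.6 kb from Marcks, had folds of 8.19 and 8.76. The region at LOC115489488, 25.8 kb from Top1, had folds of 7.68 in OL 129O1 and 5.81 in OL EpiSC5, and that at Lyrm7os, 7.05 kb from Lyrm7, had 4.40 and 9.14, so the lines were less even there.

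Motifs were searched on both strands as the letters ACAAAG (SOX), CAGCTG (E-box), TGANTCA (AP-1), ACATTCC (TEAD) and TGTGGTT (RUNX), and as the gapped palindrome of NFI. ACAAAG was in 19 of 55 windows with an OL-only region (34.5%), in 22.2% of 203 windows with an OPC-only region, in 23.3% of 617 with a shared region and in 22.2% of all lncRNA windows. CAGCTG was also in 19 of the 55 windows (34.5%), against 31.0% with an OPC-only region, 19.4% with a shared region and 17.7% of all lncRNA windows. TGANTCA was in 3 of the 55 windows (5.45%), against 14.8% with an OPC-only region, 10.4% with a shared region and 9.31% of all lncRNA windows. ACATTCC was in 5.45% and TGTGGTT in 3.64% of the 55 windows, against 7.39% and 5.91% of windows with an OPC-only region, and the NFI palindrome was in 0 of the 55 windows. Among all 32851 windows of any gene, the shares were 18.7% for ACAAAG, 16.3% for CAGCTG, 7.81% for TGANTCA, 3.85% for ACATTCC and 5.27% for TGTGGTT. The median GC content was 49.0% with an OL-only region, 50.3% with an OPC-only region and 52.3% with a shared region. The whole window was searched at any overlap with a region, and only 31 of the 55 windows overlapped one by at least 150 bp. A counted match can thus lie outside the region, and the shares describe windows and not the regions. A match is a run of letters and no evidence of binding, and 55 windows are few.

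lncRNA starts were rarer among OL-only than among OPC-only regions. Windows were overlapped by 0.438% of the OL-only regions, by 1.69% of the 10540 OPC-only regions outside genes and by 2.91% of the 18463 shared regions outside genes. With peaks compared within each line alone, the shares among OL-only regions were 0.581% in 129O1 and 0.425% in EpiSC5, against 1.28% and 1.37% among OPC-only regions. The OL-only shares averaged 0.503% ± 0.111 and the OPC-only shares 1.33% ± 0.0628 (SD, n = 2 lines), and they did not overlap. With 2 values per class the smallest two-sided p of a permutation test that ignores the pairing by line is 0.333, and no test was made. The OL-only regions were also narrower than the OPC-only regions, with a median width of 236 bp (quartiles 176 and 320 bp) against 280 bp, and 394 bp for shared regions. The effect of width on these shares was not tested.

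The share of regions that lay outside genes was lower for OL-only regions than for OPC-only regions. It was 35.0% of 35878 OL-only regions, against 46.4% of 22713 OPC-only regions and 33.3% of 55466 shared regions. Within the 129O1 line alone it was 36.0% of OL-only and 44.2% of OPC-only regions. Within the EpiSC5 line alone it was 38.1% of OL-only and 46.5% of OPC-only regions. The means were 37.0% ± 1.46 for OL-only and 45.3% ± 1.65 for OPC-only regions (SD, n = 2 lines), and both OL-only values lay below both OPC-only values. The number of OL-only regions outside genes was 19445 within 129O1, against 26309 OPC-only regions, and 27795 within EpiSC5, against 24536. The excess of OL-only over OPC-only regions, 12547 against 10540 with all 4 lists, thus turned round within 129O1. Without the OL 129O1 list there were 25812 OL-only regions. The OL EpiSC5 list is the longest, with 152595 peaks, against 127196 in OL 129O1, 125002 in OPC EpiSC5 and 129534 in OPC 129O1.

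As to distance, the OL-only regions lay as far from genes as the OPC-only regions and farther than shared regions. The median distance from the nearest protein-coding gene was 43.3 kb, with quartiles of 12.3 and 138.7 kb, against 43.1 kb for OPC-only and 26.0 kb for shared regions. Within the 129O1 line the OL-only median was 41.4 kb and the OPC-only median 42.0 kb, and within EpiSC5 these were 44.8 and 41.6 kb. Over 100 kb from any gene lay 31.9% of the OL-only regions, 31.1% of the OPC-only and 21.3% of the shared regions. Beyond 500 kb the shares were 4.95%, 3.80% and 2.46% for OL-only, OPC-only and shared regions. Measured to the nearest transcription start, the median was 84.1 kb for 12034 OL-only regions, 82.4 kb for OPC-only and 51.2 kb for shared regions. Of 9718 regions whose nearest gene had a known strand, 51.7% lay upstream of it, against 53.7% of OPC-only regions.

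Because genes are spaced unevenly, the counts were also set against the sequence at each distance. OL-only regions numbered 12.5 per Mb at 1 to 5 kb from a gene, 11.2 at 5 to 20 kb, 9.04 at 20 to 100 kb, 6.14 at 100 to 500 kb and 2.64 beyond 500 kb. OPC-only regions numbered 8.89, 9.50, 8.14, 5.21 and 1.71 per Mb over the same steps. Shared regions fell off more steeply, with 23.5 per Mb at 1 to 5 kb and 1.93 beyond 500 kb. Beyond 500 kb the OL-only regions were thus denser than shared regions, and nearer to genes they were sparser. Of the 711 gaps between genes that exceed 500 kb, 79.7% held at least 1 OL-only region, 78.5% an OPC-only region and 82.3% a shared region.

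**Figure D1:**
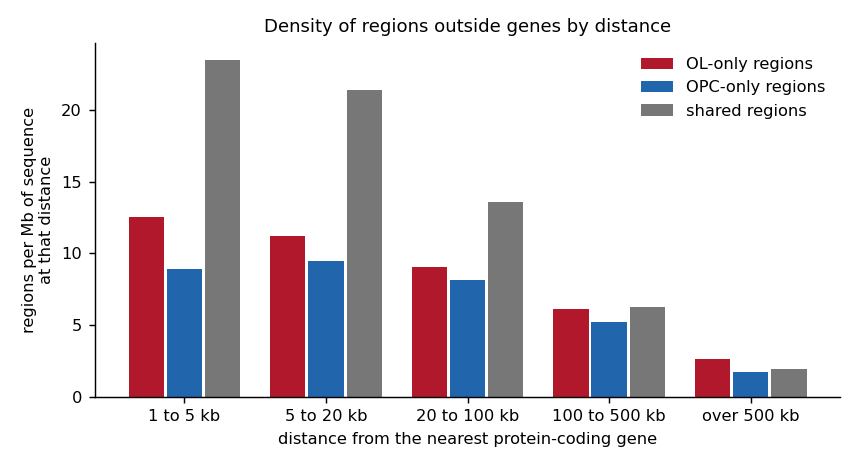
Regions per Mb of sequence outside genes (y axis) by distance from the nearest protein-coding gene (x axis), as bars for OL-only, OPC-only and shared regions. The OL-only bars go down from 12.5 to 2.64 per Mb, and the shared bars from 23.5 to 1.93 per Mb.

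By chromosome, OL-only density outside genes ran from 7.16 per Mb on chromosome 7 to 11.4 on chromosome 19, with an autosomal median of 8.44. It was 2.46 per Mb on the X chromosome, where OPC-only regions had 2.93 and shared regions 3.30 per Mb. All 3 kinds were sparser on the X chromosome than on any autosome.

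The regions were of middling height. Fold enrichment had a median of 6.68 in OL 129O1 and 8.29 in OL EpiSC5, against 8.46 and 8.53 for shared regions outside genes in the same libraries. It lay above the median fold of the whole list in 46.8% of the regions in OL 129O1 and in 67.5% in OL EpiSC5. The fold was higher in OL EpiSC5 for 76.9% of the regions, with a median ratio of 1.19. Across the 12547 regions log2 fold in the lines had a Pearson r of 0.74 and a Spearman rank correlation of 0.71, as a description over regions that share 2 libraries. The regions made up 7.33% of the base pairs under peaks in OL 129O1 and 7.56% in OL EpiSC5.

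**Figure D2:**
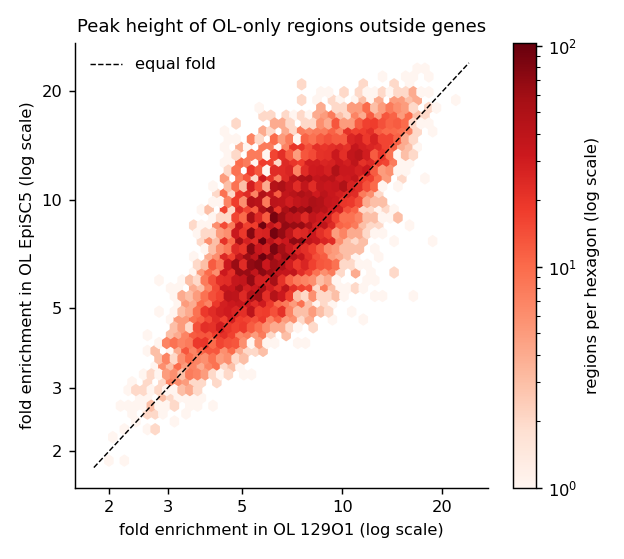
Fold enrichment of each of the 12547 regions in OL 129O1 (x axis, log scale) and OL EpiSC5 (y axis, log scale), with shade for the number of regions per hexagon and a dashed line at equal fold. Most regions, 76.9%, lie above the line.

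The highest folds were at a region 2.46 kb from Slc38a11, an amino acid transporter gene (chr2:65310834-65311572), with 21.9 in OL 129O1 and 19.5 in OL EpiSC5. A region 52.3 kb from Dock10, a guanine nucleotide exchange factor gene, had 18.4 in OL 129O1 and 20.1 in OL EpiSC5. A region 7.25 kb from Stard13 had 17.9 and 21.7. A region 74.2 kb from Tmtc2 had 17.5 and 22.9. The others of the 8 highest lay nearest to Zcchc13 (inside the lncRNA gene Ftx), Ins1, Adgrv1 and Mbnl1, an RNA-splicing factor gene, and had 17.0 to 18.8 in either library.

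The region with the most covered sequence lay 324.3 kb from Psat1, a serine synthesis gene (chr19:15580314-15581407), with 1084 bp in OL 129O1 and 1078 bp in OL EpiSC5. A region 555.2 kb from Flrt2, a gene for a cell-surface guidance protein, had 787 bp in OL 129O1 and 1053 bp in OL EpiSC5 (chr12:95136291-95137358). A region 514.0 kb from Nr5a2 had 932 and 1076 bp. Others of the 8 most covered lay nearest to Fbn2, Zfp326, Ss18, Slc6a19 and Egfl7. The farthest 4 regions, 2054 to 2224 kb from any gene, lay in the gap between Celf4 and Pik3c3 on chromosome 18. The remaining 4 farthest lay nearest to Pcdh20, Pcdh9, Cntnap5b and D3Ertd751e, and the one nearest to Pcdh9 differed between lines, with a fold of 16.4 in OL 129O1 and 5.39 in OL EpiSC5.

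Regions stood alone more often than in groups when all 4 lists were used, which depended on the lists. When regions up to 10 kb apart were joined, 8424 (67.1%) stayed single, 1469 pairs formed, and 359 clusters of 3 or more held 1185 regions (9.44%). Another OL-only region lay within 10 kb of 32.9% of the regions, against 27.4% for OPC-only regions among themselves and 41.8% for shared regions among themselves. The order of OL-only and OPC-only regions turned round within 129O1, with 45.1% of OL-only against 52.0% of OPC-only regions and 1010 against 1753 clusters of 3 or more. Within EpiSC5 the shares were 52.4% and 47.1%, and without OL 129O1 the OL-only share was 50.6%. The denser set has closer neighbours in any case, and no test of clustering was made. The count of clusters rests on which lists are used: it was 1652 without OL 129O1, 649 without OL EpiSC5 and 602 without OPC EpiSC5. A shared region lay within 10 kb of 42.8% of the regions (median 13.1 kb) and an OPC-only region within 10 kb of 21.7% (median 33.6 kb).

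The largest cluster, of 10 regions over 21.3 kb, lay 19.5 kb from Prkch, a protein kinase C gene, in sequence that runs on to Hif1a, the hypoxia-response factor gene (chr12:73797723-73819053). All peaks in its span covered, without scaling, 1449 bp in OL 129O1 and 2135 bp in OL EpiSC5, against 600 bp in OPC 129O1 and 698 bp in OPC EpiSC5. The lncRNA gene Gm8075 overlaps it. The next, of 8 regions, lay between Mipep and Tnfrsf19, a receptor gene of the TNF family (chr14:60931534-60963086), with 2790 and 4970 bp in OL 129O1 and OL EpiSC5, against 0 and 333 bp in OPC 129O1 and OPC EpiSC5. The choice of OL-only regions favours higher OL sums in such clusters. The lower OL fold of their regions ran from 3.79 to 6.68 beside Prkch and from 3.08 to 5.09 between Mipep and Tnfrsf19. Over all regions the median fold was 6.68 in OL 129O1 and 8.29 in OL EpiSC5.

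The cluster of 7 regions at Mir9-1, between Mef2d and Rhbg (chr3:88200566-88225016), went the other way in total. It had 2722 bp in OL 129O1 and 2878 bp in OL EpiSC5, against 3311 bp in OPC 129O1 and 4324 bp in OPC EpiSC5. Besides its 7 OL-only regions it held 5 shared and 1 OPC-only region, and the OPC peaks there were wide. The lower OL fold of its 7 OL-only regions ran from 2.32 to 3.68.

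**Figure D3:**
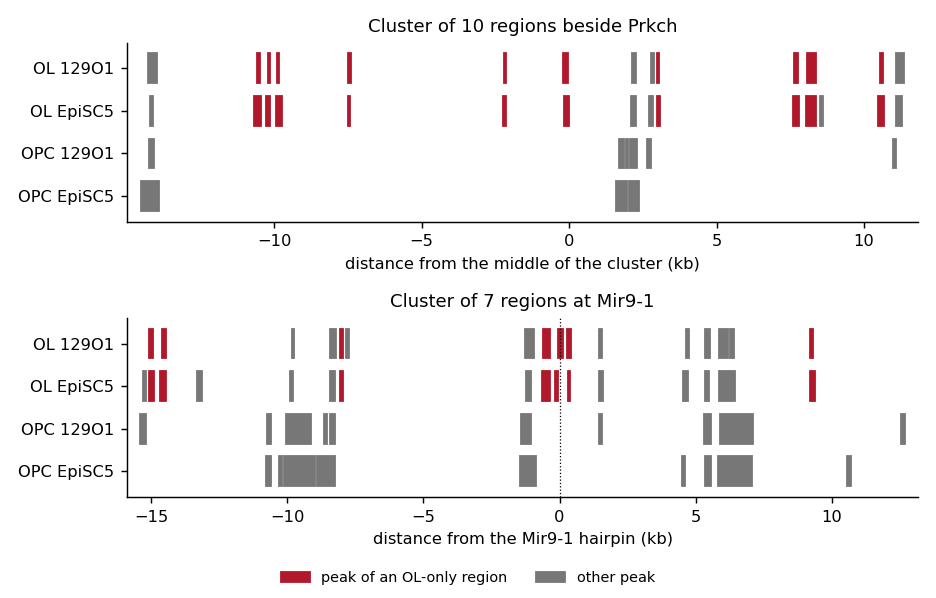
Peaks in the 4 libraries (rows) across the clusters beside Prkch (top) and at Mir9-1 (bottom), by distance in kb (x axis); red bars are peaks of OL-only regions and grey bars other peaks, and the dotted line marks the Mir9-1 hairpin. Red bars stand in both OL rows and in no OPC row, by the way the regions were chosen, and wide grey bars stand in the OPC rows at Mir9-1.

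Of the 5 clusters of 6 regions, that beside Cldn34b2 on the X chromosome (chrX:155160160-155169137) had 1048 bp in OL 129O1 and 1230 bp in OL EpiSC5 and was listed at 0 in both OPC libraries. A cluster 259.6 kb from Runx1, a transcription factor gene (chr16:93085655-93113113), had 1226 and 1532 bp in OL 129O1 and OL EpiSC5, against 369 and 0 bp in OPC 129O1 and OPC EpiSC5. A cluster 102.8 kb from Gm35364 on chromosome 7 had 1690 and 1361 bp in OL 129O1 and OL EpiSC5, against 78 and 117 bp in OPC 129O1 and OPC EpiSC5. The other two lay beside 1700012B07Rik and Rasgef1b.

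The regions were spread over many genes. Of the 21883 protein-coding genes 5281 (24.1%) were the nearest gene of at least 1 region, and 2729 of these of only 1. A small set of 131 genes was nearest to 10 or more and took 1733 regions (13.8%), in flanking sequence of 686.5 kb at the median, against 17.0 kb over all genes. Genes with more regions had longer flanks, so counts per gene stand here with that length or with the OPC-only count.

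Zfp608, a zinc-finger protein gene, was nearest to the most, 32 OL-only, 14 OPC-only and 37 shared regions in 1162 kb. Adgrl2, which encodes an adhesion receptor of the latrophilin family, had 28 OL-only, 16 OPC-only and 8 shared regions. Rasgef1b, a gene for an exchange factor of RAS-family proteins, had 25 OL-only against 4 OPC-only regions in only 415 kb, 6.03 per 100 kb, the highest density among the 12 genes with the most regions. Zmiz1, a transcriptional coregulator gene, had 23 against 3, Lcorl 23 against 7, and Cdh11, a cadherin gene, 22 against 3. Irx1, a homeobox gene, had 22 against 6, Tbl1xr1 22 against 15, Dad1 19 against 7 and Slc4a3 18 against 12.

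All peaks outside genes that were nearest to each gene were also summed, after scaling each list to the mean list total. This sum includes the OL-only regions, for which the genes were named, so a higher OL sum follows in part from the choice. Of the 52 named genes, 28 had flanks covered more in both OL than in both OPC libraries and 12 less. Without scaling these were 20 and 13. Differences of any size were counted. The share of flanks over all genes was not computed, so these counts have no background and say nothing about the named genes as a set. At Rasgef1b peaks covered 11.6 kb in OL 129O1 and 12.6 kb in OL EpiSC5, against 7.01 kb in OPC 129O1 and 6.0 kb in OPC EpiSC5. At Lcorl they covered 9.48 and 10.2 kb in OL 129O1 and OL EpiSC5, against 3.59 and 4.12 kb in OPC 129O1 and OPC EpiSC5. At Zfp608 they covered 26.6 and 30.1 kb in OL 129O1 and OL EpiSC5, against 28.4 and 25.5 kb in OPC 129O1 and OPC EpiSC5, so there the groups overlapped. The gene body of Rasgef1b went the other way, with 0.942 and 0.787 kb in OL 129O1 and OL EpiSC5, against 2.24 and 1.68 kb in OPC 129O1 and OPC EpiSC5. The body of Lcorl was covered more in both OL libraries, and values for the body of Zfp608 overlapped.

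**Figure D4:**
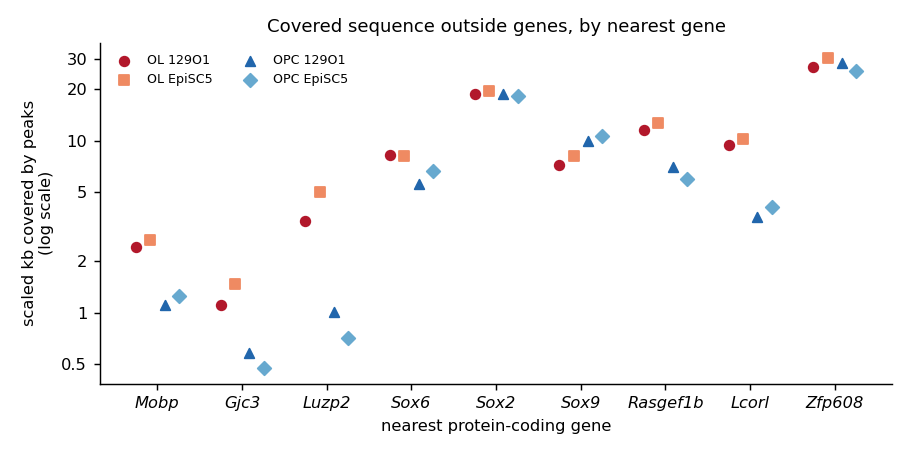
Scaled kb covered by all peaks outside genes nearest to each of 9 genes (y axis, log scale), with a marker for each of the 4 libraries. OL markers lie above OPC markers at Mobp, Gjc3, Luzp2, Rasgef1b and Lcorl, below them at Sox9, and among them at Zfp608.

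Genes of the OL programme were described by lists. Of 30 myelin and mature OL genes, 11 had at least 1 OL-only region, with 25 OL-only against 14 OPC-only regions in 1.35 Mb of flanks, 18.6 against 10.4 per Mb. Over all genes the densities were 7.73 OL-only against 6.49 OPC-only regions per Mb, and 24.1% of genes had a region. OL-only density was 14.3 per Mb in gaps of 2 to 20 kb between genes and 5.04 per Mb in gaps over 500 kb. Flank length differs between lists and was not matched, so list densities and those over all genes are not like for like. Within 129O1 the myelin list had 41 OL-only against 46 OPC-only regions, and within EpiSC5 49 against 35. The ratio was 0.891 within 129O1 and 1.40 within EpiSC5, beside 0.739 and 1.13 over all genes. Mobp, the gene for a myelin basic protein of OLs, had 4 OL-only, 0 OPC-only and 3 shared regions. The region of Mobp that lay 29.5 kb downstream (chr9:120210797-120211131) had folds of 11.5 in OL 129O1 and 14.2 in OL EpiSC5, and the other 3, at 5.07 to 7.40 kb upstream, had 4.08 to 5.40 in either library. All peaks in the flanks of Mobp covered 2.42 and 2.66 kb in OL 129O1 and OL EpiSC5, against 1.10 and 1.25 kb in OPC 129O1 and OPC EpiSC5. Both OL sums lay above both OPC sums, as at 28 of the 52 named genes, and they include the chosen regions.

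Gjc3, which encodes a connexin of OLs, had 3 OL-only and 0 OPC-only regions, all within 5 kb, with flanks covered over 1.11 and 1.47 kb in OL 129O1 and OL EpiSC5, against 0.584 and 0.475 kb in OPC 129O1 and OPC EpiSC5. Tspan2, a tetraspanin gene, and Nfasc, a gene for an adhesion protein of the node of Ranvier, each had 4 OL-only regions against 1 OPC-only region. Their flank sums overlapped between the groups. Among the marker genes, Mbp and Mag, which encode myelin proteins, each had 1 OL-only and 0 OPC-only regions. Mog, Cnp and Myrf had none.

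Of 27 genes of newly formed OLs, 17 had at least 1, with 47 OL-only against 24 OPC-only regions, 18.9 against 9.65 per Mb. Within 129O1 they had 68 against 65, and within EpiSC5 92 against 50. Bmp4, a growth factor gene, had 7 OL-only against 3 OPC-only regions, and the region 184.4 kb downstream (chr14:46198901-46199393) had folds of 12.7 in OL 129O1 and 15 in OL EpiSC5. Tcf7l2, a Wnt effector gene needed for OL differentiation in the mouse, had 5 against 1, all downstream at 16.0 to 130.2 kb. Its flanks were covered over 7.46 and 7.37 kb in OL 129O1 and OL EpiSC5, against 5.33 and 5.70 kb in OPC 129O1 and OPC EpiSC5. Ust, a sulfotransferase gene, had 5 against 1, and Rap2a, a small GTPase gene, 5 against 3.

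Transcription factor genes of the OL lineage were near many regions of every kind. Of 41 such genes 31 had at least 1, with 185 OL-only, 194 OPC-only and 224 shared regions, so OL-only density (14.0 per Mb) lay just under OPC-only density (14.6 per Mb). Within 129O1 they had 260 OL-only against 415 OPC-only regions, and within EpiSC5 392 against 340. Sox2, a factor gene of neural progenitors, had 23 OL-only and 19 OPC-only regions, and Sox11 had 22 and 14. The flanks of Sox2 were covered over 18.7 and 19.6 kb in OL 129O1 and OL EpiSC5, against 18.6 and 18.2 kb in OPC 129O1 and OPC EpiSC5, nearly the same. Among its OL-only regions 3 lay 10.6 to 11.9 kb upstream, and Mir1897, whose hairpin stands 11.5 kb from Sox2, had 4 OL-only and 2 OPC-only regions within 20 kb. Sox9, a glial factor gene, had 16 OL-only and 13 OPC-only regions, and its flanks were covered over 7.19 and 8.11 kb in OL 129O1 and OL EpiSC5, below the 9.93 and 10.6 kb in OPC 129O1 and OPC EpiSC5.

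Sox6, a factor gene that holds OPCs back from maturing in the mouse, had 14 OL-only against 5 OPC-only regions, the highest density among the 4 leading factor genes, at 4.26 per 100 kb. All 14 lay downstream, from 1.28 to 300.8 kb. The region at 39.1 kb (chr7:115431516-115432066) had folds of 12.3 in OL 129O1 and 15.9 in OL EpiSC5, and those at 198.9 and 283.5 kb had 11.5 and 12 in OL 129O1 and 16.3 and 15.5 in OL EpiSC5. Sox6 flanks were covered over 8.20 and 8.16 kb in OL 129O1 and OL EpiSC5, against 5.62 and 6.63 kb in OPC 129O1 and OPC EpiSC5, but the values overlapped without scaling. Sox10, the factor gene that drives myelin genes, had 5 OL-only and 0 OPC-only regions in 31.9 kb, and Olig2 had 1 of each. Both were picked after their values were seen.

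OPC genes also had more OL-only than OPC-only regions nearby. Of 28 genes 21 had at least 1, with 82 OL-only against 32 OPC-only regions. The OL-only density, 8.04 per Mb, was near the 7.73 over all genes, and the OPC-only density, 3.14 per Mb, lay under the 6.49 over all genes. The 28 genes had 10.2 Mb of flanks, and flank length was not matched in setting them beside all genes. Within 129O1 the OPC list had 113 against 94, and within EpiSC5 147 against 90. Luzp2, a leucine-zipper protein gene used as an OPC marker, had 10 OL-only and 0 OPC-only regions. The region 218.8 kb upstream of Luzp2 had folds of 10.2 in OL 129O1 and 16.5 in OL EpiSC5. Luzp2 flanks were covered over 3.43 and 5.04 kb in OL 129O1 and OL EpiSC5, against 1.01 and 0.714 kb in OPC 129O1 and OPC EpiSC5. Both OL sums lay above both OPC sums, as at 28 of the 52 named genes, and these sums too include the chosen regions. Lrrc4c, an adhesion protein gene, had 13 against 2 in 2903 kb of flanks, Xylt1, an enzyme gene for proteoglycan chains, 12 against 10, and Nxph1 5 of each. The Lrrc4c body was covered over 8.38 and 8.42 kb in OL 129O1 and OL EpiSC5, less than the 9.54 and 10.1 kb in OPC 129O1 and OPC EpiSC5. In the OPC list 10 of 27 covered bodies were covered more in both OL than in both OPC libraries and 5 less. Without scaling the counts were 7 and 6. Over all genes with covered bodies, 32.5% were covered more and 25.1% less with scaling, and 24.1% and 39.0% without. Pdgfra, the PDGF receptor gene that marks OPCs, had 4 against 1, and Cspg4, which encodes NG2, had 2 against 0.

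Genes of the cytoskeleton had 38 OL-only against 31 OPC-only regions, with at least 1 OL-only region at 19 of 32 genes, a balance near that of 12547 against 10540 over all genes. Within 129O1 they had 54 against 86, and within EpiSC5 88 against 77. Septin4 had 3 OL-only regions, 3.42 to 3.95 kb upstream, and no others in its 4.43 kb of flanks, which were covered over 0.623 and 0.646 kb in OL 129O1 and OL EpiSC5 and listed at 0 in both OPC libraries. The widest of the 3 (chr11:87563030-87563502) had folds of 13.7 in OL 129O1 and 14.4 in OL EpiSC5. The Septin4 body was covered over 0.932 and 0.845 kb in OL 129O1 and OL EpiSC5, less than the 1.01 and 1.02 kb in OPC 129O1 and OPC EpiSC5. In the cytoskeleton list 12 of 30 covered bodies were covered more in both OL than in both OPC libraries and 6 less. Without scaling the counts were 10 and 6. The shares over all genes with covered bodies were 32.5% more and 25.1% less with scaling, and 24.1% and 39.0% without. Marcks, a gene for an actin-binding substrate of protein kinase C, had 11 OL-only against 8 OPC-only regions, Stmn4 4 against 3 and Rhob 3 against 2. Genes of cholesterol and myelin lipid synthesis had 25 against 18, with at least 1 OL-only region at 12 of 31, and 38 against 37 within 129O1 and 55 against 33 within EpiSC5. Elovl6, a fatty acid elongase gene, had 3 against 0, and a region 24.8 kb upstream had folds of 14.5 in OL 129O1 and 17.1 in OL EpiSC5. Ugt8a, the gene for the enzyme of galactosylceramide synthesis, had 3 against 2, Scd2 3 of each and Insig1 5 against 2.

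**Figure D5:**
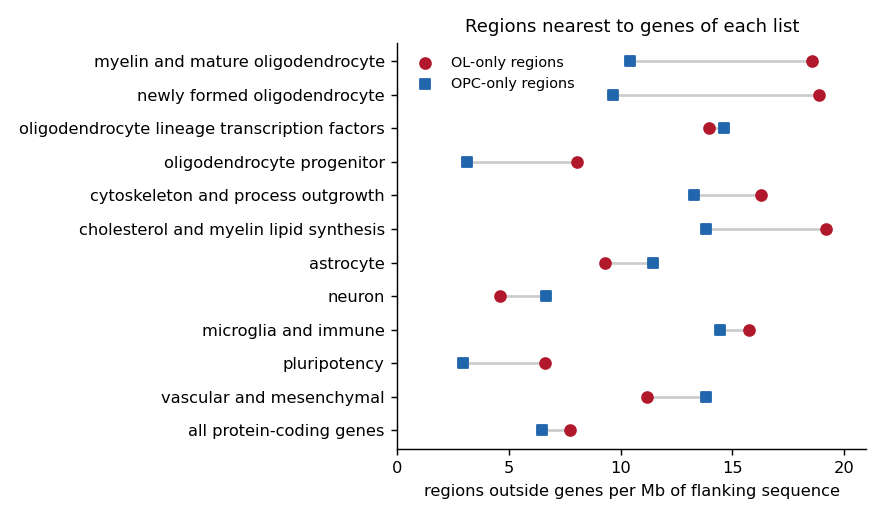
OL-only (circles) and OPC-only (squares) regions outside genes per Mb of flanking sequence (x axis) nearest to the genes of each list (y axis). Circles lie left of squares for the OL lineage transcription factor, astrocyte, neuron and vascular lists and right of them for the other 7 lists and for all genes. Flank length differs between lists and was not matched.

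Among lists for other cells, astrocyte genes had 13 OL-only against 16 OPC-only regions (6 of 15 genes with an OL-only region), neuron genes 9 against 13 (7 of 16) and vascular and mesenchymal genes 17 against 21 (4 of 12). Microglia and immune genes had 12 against 11 (2 of 14), 11 of them at Ptprc, and pluripotency genes 9 against 4 (5 of 12), more OL-only than OPC-only regions. Within 129O1 the pluripotency list had 17 against 12 and the microglia list 16 against 34, and within EpiSC5 they had 24 against 19 and 29 against 21. The marker genes were checked by the kb of gene body under peaks, scaled as above. The 10 OL markers summed to 19.6 kb in OL 129O1 and 22.1 kb in OL EpiSC5, against 11.9 kb in OPC 129O1, where Mag and Mog were listed at 0, and 13.7 kb in OPC EpiSC5. The 5 OPC markers summed to 20.5 and 21.6 kb in OL 129O1 and OL EpiSC5, against 18.3 and 18.1 kb in OPC 129O1 and OPC EpiSC5, so OPC marker genes were no less covered in OLs. Without scaling, OPC markers summed to 18.1 and 22.4 kb in OL 129O1 and OL EpiSC5, against 17.8 and 20.1 kb in OPC 129O1 and OPC EpiSC5, which overlap. Astrocyte markers summed to 5.50 and 5.37 kb in OL 129O1 and OL EpiSC5, against 8.11 and 8.18 kb in OPC 129O1 and OPC EpiSC5. Vascular markers summed to 3.27 and 2.90 kb in the same OL libraries, against 6.50 and 7.18 kb in the OPC libraries. Neuron markers gave 17.5 and 16.0 kb in OLs against 14.4 and 18.1 kb in OPCs, microglia markers 2.63 and 3.06 kb against 2.56 and 2.67 kb, and pluripotency markers 0.743 and 0.615 kb against 0.815 and 1.13 kb. Pou5f1, Nanog and Zfp42 were listed at 0 in all 4 libraries, and the part of other cells in the regions was not tested.

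Bodies of the nearest genes are sequence the regions do not touch, though the contrast is the same. Of 12554 gene bodies with a mean of at least 0.5 kb under peaks, 32.5% were covered more in both OL than in both OPC libraries, and 25.1% less. Of the 3870 such genes that were nearest to at least 1 region, 1375 (35.5%) were covered more and 994 (25.7%) less, shares close to those over all genes. Without scaling of the lists the order turned round, with 26.5% more and 35.9% less among the nearest genes and 24.1% more and 39.0% less over all genes. The median log2 difference over all genes was 0.03 with scaling and -0.08 without. Among covered genes nearest to 10 or more regions, 37.5% were covered more. In the myelin list 11 of 20 covered bodies were covered more and 5 less, and 6 and 5 without scaling. In the newly formed OL list 13 of 24 were covered more and 5 less, and 12 and 6 without scaling.

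Ends of the nearest genes were mostly open in both cell types. Of the 5281 genes, 67.4% had a peak within 1 kb of an end in all 4 libraries, 1.36% (72 genes) in both OL libraries only and 2.31% (122 genes) in both OPC libraries only. A further 19.8% had none in any library. Over all genes 58.9% had one in all 4 libraries, and 30.0% had none in any. Peaks in both OL libraries only stood at 1.28% of all genes, and in both OPC libraries only at 2.07%. Those 2 shares are close to the shares among the nearest genes.

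Non-coding genes held 2291 of the regions (18.3%), against 20.2% of OPC-only and 21.6% of shared regions. Most of these, 2074, were in lncRNA genes. The annotated T-cell receptor alpha locus Tcra, on chromosome 14, had the most, 32 OL-only regions against 8 OPC-only and 27 shared regions over 1796 kb. Peaks there covered 19.5 and 27.6 kb in OL 129O1 and OL EpiSC5, against 10.0 and 13.8 kb in OPC 129O1 and OPC EpiSC5. Sums at Tcra and at A930011G23Rik below are scaled and include the OL-only regions for which both were named. A higher OL sum follows in part from that choice. Cut into 4 equal parts, the Tcra locus held 6, 7, 9 and 10 regions, so these were spread along it, and Dad1, the gene at its end, took many as nearest gene. A930011G23Rik, the lncRNA gene next to Rasgef1b, held 23 OL-only against 4 OPC-only regions, with 11.4 and 12.9 kb covered in OL 129O1 and OL EpiSC5, against 6.19 and 6.89 kb in OPC 129O1 and OPC EpiSC5. Many of these are the same regions as those counted above for Rasgef1b, and the cluster beside Rasgef1b lies in this lncRNA gene. Sox2ot, the lncRNA gene around Sox2, held 7 against 4.

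At the edges of the choice, 56 regions (0.446%) had a weaker OL peak with −log10 q under 4, and the median of the weaker peak was 10.0. Left out were 4311 regions outside genes with a peak in both OL lists and in 1 OPC list, 2971 of them in OPC EpiSC5 and 1340 in OPC 129O1. Those OPC peaks had a median −log10 q of 9.44. Another 15617 regions had a peak in 1 OL list and in no OPC list, 13074 of them in OL EpiSC5. By distance, 437 kept regions lay 1 to 2 kb from a gene, and 462 OL-only regions outside gene intervals were left out as within 1 kb of an end.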

How the data were processed

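Nuclei of OLs and OPCs from 2 lines were profiled by Omni-ATAC-seq. Trim Galore 0.3.1, Bowtie2 2.3.2, Picard, MACS2 and the build mm10 are named in the submitters' processing notes. Not given in the sources used here are the MACS2 version, its threshold, the handling of duplicates and any Tn5 shift. Per the file names, blacklisted regions were removed by the authors, who deposited 1 peak list per library. Each deposited peak has a fold enrichment (a linear ratio) and a whole-number score, and −log10 p and −log10 q values from the authors' caller. Fold and −log10 q served here to rank, filter and describe the peaks of 1 list at a time, and the score was not used. Lists held 125002 to 152595 peaks, and the lowest −log10 q was 3.00 to 3.03. Read depth is not in the lists and is unknown, so no counting interval was given.

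Peaks of the 4 lists were merged where they overlapped or touched, and regions were placed by midpoint against 1 interval per protein-coding gene (RefSeq, GRCm38.p6), 17491 of 21883 with a strand. Distances run from the midpoint to the nearest gene interval. Clusters join regions up to 10 kb apart. Covered kb was scaled to the mean list total, and log2 differences used a pseudocount of 0.2 kb. Gene flanks are sequence outside genes nearest to that gene. MicroRNA and promoter sequences came from RefSeq tables, from which chromosome 18 was left out, and no genome sequence was used here. Python 3.11.15, pandas 2.3.3, numpy 2.4.6, scipy 1.17.1 and matplotlib 3.10.9 were used, and the merging and placing steps were tested on simulated data.

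The regions and the gene lists were chosen with earlier results of these data known. Named are the 8 regions each with the most covered base pairs, the highest fold (lower of the OL lists) or the largest distance; the 8 clusters with the most regions; the 12 genes nearest to the most regions; and up to 4 such genes per list. Ties went by covered base pairs. Alternatives varied the q filter, list length, merging gap, summit windows, gene margin, gene set, distance measure, joining distance, line and library. Libraries of 1 cell type came from different lines, and whether they differ in culture or day is not stated.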

Additional observations from a re-analysis of the deposited data

Results flagged for a closer look

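Signal also appeared in sequence that the comparisons do not use. On unplaced sequences and the mitochondrial genome, which carry no protein-coding gene interval here, 31 regions were OL-only and 11 were OPC-only. They could not be placed by distance from a gene and were set aside. No cause was tested.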

How the results depend on the processing

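The 12547 regions became 6534 with only the best 50% of peaks by q in each list, 19445 within 129O1 and 27795 within EpiSC5. Leaving out 1 library at a time gave 13920 to 25812. The share outside genes (35.0%) was 27.6% with a margin of 10 kb, 27.7% with all genes of the annotation and 38.1% within EpiSC5, and 35.1% to 38.2% over the left-out libraries. The median width (236 bp) was 328 bp with the best 50%, 247 bp with lists of equal length, 252 bp with peaks up to 200 bp apart merged, 224 bp with 200 bp around each summit, 157 bp within 129O1 and 164 bp within EpiSC5, and 154 to 240 bp over the left-out libraries. The median distance (43.3 kb) was 40.0 kb with no margin, 70.4 kb with a margin of 10 kb, 14.6 kb with all genes and 84.1 kb to the nearest transcription start, and 41.6 to 45.5 kb over the left-out libraries. The share over 100 kb (31.9%) was 40.5% with a margin of 10 kb and 7.78% with all genes, and 31.2% to 33.1% over the left-out libraries. The share with a neighbour within 10 kb (32.9%) was 18% with the best 50%, 26.3% with merging at 200 bp, 45.1% within 129O1 and 52.4% within EpiSC5, and 35.2% to 50.6% over the left-out libraries. The 359 clusters became 66 with the best 50%, 209 with merging at 200 bp, 235 with all genes, 1010 within 129O1 and 1930 within EpiSC5, and 142, 709 and 1259 when joined at 5, 20 and 50 kb, and 453 to 1652 over the left-out libraries. With fewer lists more regions qualify, and with more genes distances shorten, by construction; otherwise the cause was not tested. Coverage without scaling and list counts within each line were chosen after seeing the data. OL and OPC libraries are paired by line, but no paired test was made because the results come from no test. The comparisons within each of the 2 lines are given as values. With 2 libraries per cell type and unknown depth, a region missing from a list may have lacked reads, and widths depend on the shortest peak listed (80 and 84 bp in OL lists, 78 and 100 bp in OPC lists).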
